A study of Mus musculus with 8 samples.

Results

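Glucose breakdown and the oxygen-sensing HIF pathway were examined through 38 genes, comprising 16 glycolytic enzymes, 7 HIF factors and regulators and 15 other genes known as HIF targets. Members were taken by gene symbol, with every probe that the platform annotation pairs with the symbol. A probe was named for 35 of the 38 genes, and *Hk2*, *Gpi1* and *Eno1* had none in the annotation used here. These 35 genes had 71 of the 45281 probes, and 29 of them, with 44 probes, entered the comparison among 10766 genes and 19841 probes in all.

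The cells were sorted for EGFP from the spleens of E12.5 mouse embryos of strain C57BL/6J;129, and their RNA was read on 8 single-colour Illumina BeadChips. *Bapx1* null embryos (4 arrays) carried, on both copies, an allele with EGFP placed behind the start codon of *Bapx1* and a short stretch of the gene deleted (tm4.Tlu), and *Bapx1* wildtype embryos (4 arrays) carried EGFP linked through an IRES to the 3′ UTR of an intact *Bapx1*, written by the study as +/tm2.Tlu. *Bapx1*, also named *Nkx3-2*, is a homeobox gene of the early spleen. Both reporters follow the *Bapx1* promoter, so the gate selects cells in which that promoter is active, and reporter allele, its copy number and genotype cannot be told apart. Each replicate is described as biological, but how many embryos went into it is not stated, and fewer cells of a type and less RNA per cell cannot be told apart in such samples.

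Glycolysis turns glucose into pyruvate through a fixed order of cytosolic enzymes, and lactate dehydrogenase then converts pyruvate to lactate. Hypoxia-inducible factors are pairs of an oxygen-labile alpha subunit (*Hif1a* or *Epas1*) and the stable partner *Arnt*. When oxygen is present, prolyl hydroxylases of the *Egln* family mark the alpha subunit for *Vhl*, which leads to its destruction, and when oxygen is low the pair binds a short DNA core in many glycolytic and stress genes and raises their transcription.

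That core is ACGTG or GCGTG, and windows of the mouse genome around it are shown for 12 members whose values are given below, with the core in capitals. They were searched on both strands within 250 bases before and 50 bases after each transcript start in RefSeq (GRCm38.p6), where 34 of the 38 members had an entry. CACGTG holds ACGTG on both strands and was counted on each. In the windows of *Aldoa* the core is on the opposite strand, so that it reads CACGT, and every window is written along the strand of its gene.
Pfkm (chr15:98092442-98092470, plus strand): attaagtatgccACGTGaagtaagtaatt
Aldoa (chr7:126799364-126799392, minus strand): tgtggctcgagtCACGTcctagcggggcg
Gapdh (chr6:125165801-125165829, minus strand): cacacgcttggtGCGTGcacatttcaaaa
Pgk1 (chrX:106186938-106186966, plus strand): gcgtcgtgcaggACGTGacaaatggaagt
Ldha (chr7:46845648-46845676, plus strand): gtgtcgcagcacACGTGgagccactcttg
Hif1a (chr12:73907721-73907749, plus strand): acacagacaagcACGTGagcggggcagct
Egln3 (chr12:54204087-54204115, minus strand): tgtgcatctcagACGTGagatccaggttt
Slc2a1 (chr4:119108697-119108725, plus strand): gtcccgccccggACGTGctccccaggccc
Ddit4 (chr10:59951941-59951969, minus strand): agaacgttgcgaACGTGcgcccggtgcct
Ankrd37 (chr8:45999840-45999868, minus strand): cagtgtttgggtACGTGaggccgcagcgg
Higd1a (chr9:121857850-121857878, minus strand): ccggtctagcctGCGTGcgtggcgttcgc
Kdm3a (chr6:71632928-71632956, minus strand): ccgggaggctgtGCGTGtcttgtgagaga

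All 12 cores lie upstream of an annotated transcript start, at distances of 6 bases (*Ankrd37*) to 229 bases (*Egln3*). The window of *Ankrd37* runs past that start. Of the windows, 6 fall inside the annotated span of the same gene, which other transcripts extend (*Aldoa*, *Gapdh*, *Ldha*, *Hif1a*, *Ankrd37* and *Kdm3a*). At least 1 core was present in 29 of the 34 members (85.3%), against 52.3% of 17492 protein coding genes. The ACGTG form was present in 61.8% of the members, against 23.2% of the protein coding genes. Both shares count a gene if any of its promoters had the core, over 48 promoters of members and 21263 of protein coding genes. The members were chosen as glycolysis and HIF genes, so this comparison with other genes is not a test. *Tpi1*, *Gpi1*, *Eno2*, *Hif1an* and *Vhl* had no core in these windows, and *Epas1*, *Slc2a3*, *Bnip3l* and *Ndrg1* had no entry. Of the members with an entry, 14 of 16 that passed the test below in either direction had a core, as had 8 of 10 that were tested and did not pass. A match of this kind describes the letters and is neither a binding site nor a cause.

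Levels are log2 intensities after background correction and quantile normalization, and each difference is null minus wildtype with its standard error. A gene was called where its limma p, adjusted over the 10766 genes, was under 0.05. Of the 29 members tested, 18 were called (62.1%), against 44.8% of all genes, 13 of them higher (44.8%, against 27% of all genes) and 5 lower (17.2%, against 17.7%). The null and wildtype arrays did not overlap in 15 members (51.7%), against 40.2% of all genes. Counted by probe, 23 of 44 were called (52.3%, against 41.9% of all probes), 16 of them higher (against 21.6% of all probes) and 7 lower (against 20.3%). Across all genes the median difference was 0.09. Quantile normalization gives every array the same distribution of levels, so this median does not show how the genotypes were centred. Scaling each array by its median absolute deviation, which the methods name, put that median at 0.43, and 13 members were then higher and 1 lower (*Hif1a*). The lower calls below therefore depend on the scaling, and the value under that scaling stands beside each named gene whose call it ended. With each array centred on its median instead, *Hif1a*, *Arnt*, *Egln1*, *Slc2a3* and *Kdm3a* were still called lower (-2.30, -0.80, -0.75, -0.77 and -0.71). *Pfkfb2*, *Cited2*, *Cul2*, *Vegfa* and *Tfrc*, named further below, also stayed lower with median centring.

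The glycolytic enzymes moved one way where they moved. Of 11 tested, 8 were called higher (72.7%, against 27% of all genes), none lower (against 17.7%) and 3 neither. Their median log2 difference was 0.50. None was lower at an unadjusted p under 0.05 in limma either, nor called lower in any alternative analysis. With each array centred on its median in place of quantile normalization, 5 were called higher. Of all genes 33.2% were then called, and 60.9% of those were lower. The null and wildtype arrays did not overlap in 6 of the 11 enzymes (54.5%, against 40.2% of all genes). The mean over the 11 enzymes, relative to the wildtype mean of each, was 0.40, 0.58, 0.55 and 0.29 on null replicates 1 to 4, against 0.01, 0.06, 0.01 and -0.08 on wildtype replicates 1 to 4. Null replicates 2 and 3 were the highest, and every null array was above every wildtype array. The plot of the glycolytic enzymes shows each of them by array.

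**Figure D1:**
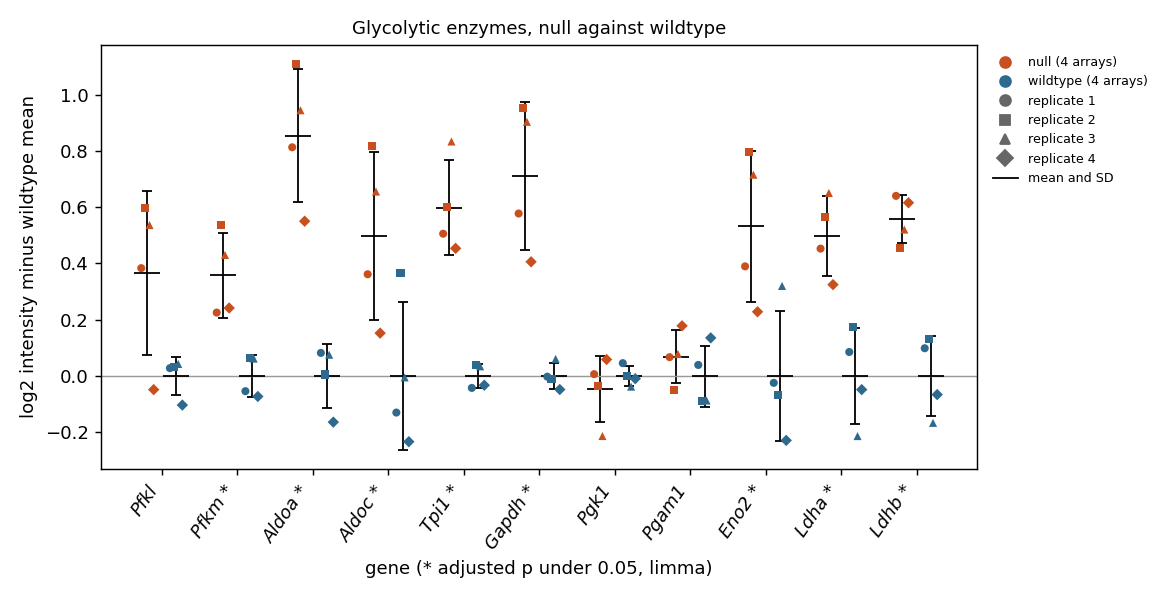
Log2 intensity of the 11 tested glycolytic enzymes minus the wildtype mean of each gene, with null arrays to the left of wildtype arrays, symbols for replicates, and bars for the mean and SD over 4 arrays. *Aldoa*, *Tpi1*, *Gapdh*, *Ldha*, *Ldhb* and *Pfkm* have null arrays all above wildtype arrays, while *Pgk1* and *Pgam1* stay near 0.

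Early in the pathway, phosphofructokinase commits the sugar to breakdown and aldolase splits it. *Aldoa*, the main aldolase of most tissues, stood at 10.55, 10.84, 10.68 and 10.28 on null arrays and at 9.82, 9.74, 9.81 and 9.57 on wildtype arrays. The lowest null array was above the highest wildtype array. The difference was 0.85 ± 0.13 (1.81-fold, adjusted p = 0.000957, limma), the largest among these 11 enzymes.

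*Pfkm*, the muscle-type phosphofructokinase, averaged 11.08 ± 0.15 in null and 10.72 ± 0.07 in wildtype cells (SD, n = 4 each), a difference of 0.36 ± 0.10 (adjusted p = 0.0149, limma). The arrays did not overlap, a second probe rose as well (0.43, adjusted p = 0.00663 over all probes), and the third, the dimmest, did not pass (0.23, adjusted p = 0.087). Median centring ended the call of the brightest probe (0.26, adjusted p = 0.179). The liver-type *Pfkl* averaged 11.34 ± 0.29 and 10.97 ± 0.07, with an adjusted p of 0.0551 that became 0.00225 without null replicate 4. That array was below every wildtype array but replicate 4 for *Pfkl*.

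*Aldoc*, the brain-type aldolase, averaged 5.96 ± 0.30 in null and 5.47 ± 0.26 in wildtype cells, a difference of 0.50 ± 0.17 (adjusted p = 0.0424, limma). Its genotypes overlapped, and the call was lost on leaving out any array but null replicate 4 and wildtype replicate 2 (adjusted p of 0.0581 to 0.115), and under both other scalings (adjusted p of 0.103 and 0.116). *Hk1*, the hexokinase that starts the pathway, was above background on no array with either of its probes, and the better probe of *Pfkp*, the platelet-type phosphofructokinase, was above background on 1 null and 2 wildtype arrays, so neither was tested.

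Later in the pathway, triose phosphate isomerase and glyceraldehyde phosphate dehydrogenase feed the steps that yield ATP. *Tpi1* stood at 12.90, 13.00, 13.23 and 12.85 on null arrays and at 12.36, 12.44, 12.43 and 12.37 on wildtype arrays. The genotypes were separated on every array, by 0.60 ± 0.10 (1.51-fold, adjusted p = 0.00164, limma), and a second *Tpi1* probe differed by 0.61.

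*Gapdh*, often used as a reference gene, stood at 12.86, 13.24, 13.19 and 12.69 on null arrays and at 12.28, 12.27, 12.35 and 12.24 on wildtype arrays. All null arrays were above all wildtype arrays, and the difference was 0.71 ± 0.13 (1.64-fold, adjusted p = 0.00252, limma). The null arrays were spread more widely (SD 0.26) than the wildtype arrays (SD 0.05).

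*Pgk1* and *Pgam1*, the next enzymes in order, showed no such separation. *Pgk1*, phosphoglycerate kinase, stood at 11.60, 11.56, 11.38 and 11.66 on null arrays and at 11.64, 11.60, 11.56 and 11.59 on wildtype arrays, and its difference was -0.05 ± 0.08 (adjusted p = 0.674, limma). Its ranges overlapped, with null replicate 3 lowest. *Pgam1*, phosphoglycerate mutase, averaged 9.62 ± 0.09 in null and 9.55 ± 0.11 in wildtype cells (adjusted p = 0.546). *Pgk1* is the only member on the X chromosome.

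*Eno2*, the enolase known from neurons, averaged 8.45 ± 0.27 in null and 7.92 ± 0.23 in wildtype cells, a difference of 0.53 ± 0.16 (adjusted p = 0.0231, limma). Its arrays overlapped, and the call was lost without wildtype replicate 1, 2 or 4 or null replicate 2 or 3 (adjusted p of 0.0552 to 0.0688), and with median centring (0.37, adjusted p = 0.137).

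Lactate dehydrogenase closes the pathway when oxygen is short. *Ldha*, the subunit that favours lactate formation, stood at 11.44, 11.56, 11.64 and 11.32 on null arrays and at 11.08, 11.17, 10.78 and 10.94 on wildtype arrays. The ranges were separate, with a difference of 0.50 ± 0.11 (1.41-fold, adjusted p = 0.00719, limma). *Ldhb*, the subunit that favours the way back to pyruvate, averaged 6.32 ± 0.09 in null and 5.76 ± 0.14 in wildtype cells, also without overlap, a difference of 0.56 ± 0.09 (adjusted p = 0.00201, limma). Both subunits thus rose.

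The HIF factors and regulators did not follow the enzymes. Of 6 tested, 1 was called higher (16.7%, against 27% of all genes) and 3 lower (50%, against 17.7%), with a median log2 difference of -0.38. Under median absolute deviation scaling 1 was higher and 1 lower, and the median was 0.14. The alpha subunit *Hif1a* stood at 6.27, 4.82, 4.83 and 6.81 on null arrays and at 8.28, 7.88, 6.91 and 8.38 on wildtype arrays. Every null array was below every wildtype array, and the highest, null replicate 4, was close to the lowest, wildtype replicate 3. The difference was -2.18 ± 0.49 (4.53-fold lower, adjusted p = 0.00766, limma), the largest of any member.

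This value rests on 1 *Hif1a* probe, which was above background on 2 null and 4 wildtype arrays. Of its other 2 probes, 1 was above background on no null and 1 wildtype array, and 1 could not be matched to a single signal. *Epas1*, the other alpha subunit, had 4.63, 4.59, 4.70 and 4.71 on null arrays and 4.76, 4.70, 4.57 and 4.55 on wildtype arrays. None of these was above background, so *Epas1* was not tested.

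*Arnt*, the partner of both alpha subunits, stood at 9.65, 9.41, 9.23 and 10.08 on null arrays and at 10.51, 10.20, 10.02 and 10.33 on wildtype arrays with its brightest probe. Null replicate 4 overlapped the wildtype range. The difference was -0.67 ± 0.18 (1.59-fold lower, adjusted p = 0.0164, limma), but 4 further *Arnt* probes gave differences between -0.32 and 0.26 and none of them was called, so the direction of the gene as a whole depends on the probe. Under median absolute deviation scaling the brightest probe had -0.14 (adjusted p = 0.691).

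The prolyl hydroxylases moved in opposite directions. *Egln3*, itself known as a HIF target, stood at 8.76, 9.15, 9.25 and 8.24 on null arrays and at 7.60, 8.13, 7.84 and 7.60 on wildtype arrays. The lowest null array was just above the highest wildtype array, and the difference was 1.06 ± 0.22 (2.08-fold, adjusted p = 0.00526, limma). Its other 2 probes were above background on no array.

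*Egln1*, the hydroxylase that sets the level of HIF1A in most cells, stood at 4.92, 4.71, 4.49 and 5.31 on null arrays and at 5.89, 5.32, 5.10 and 5.86 on wildtype arrays. These levels were close to background, being above it on 1 null and 3 wildtype arrays, and the ranges overlapped. The difference was -0.68 ± 0.22 (1.60-fold lower, adjusted p = 0.0328, limma), and the call was lost without wildtype replicate 1 or 4 or null replicate 1, 2 or 3 (adjusted p of 0.0587 to 0.0925) and under median absolute deviation scaling (-0.68, adjusted p = 0.0513).

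*Hif1an*, an asparagine hydroxylase that blocks the activity of the alpha subunit, averaged 9.75 ± 0.14 in null and 9.84 ± 0.12 in wildtype cells (adjusted p = 0.532). *Vhl*, the recognition subunit of the ligase, averaged 10.17 ± 0.13 and 9.99 ± 0.07 (adjusted p = 0.136). Neither passed the test, and both overlapped.

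**Figure D2:**
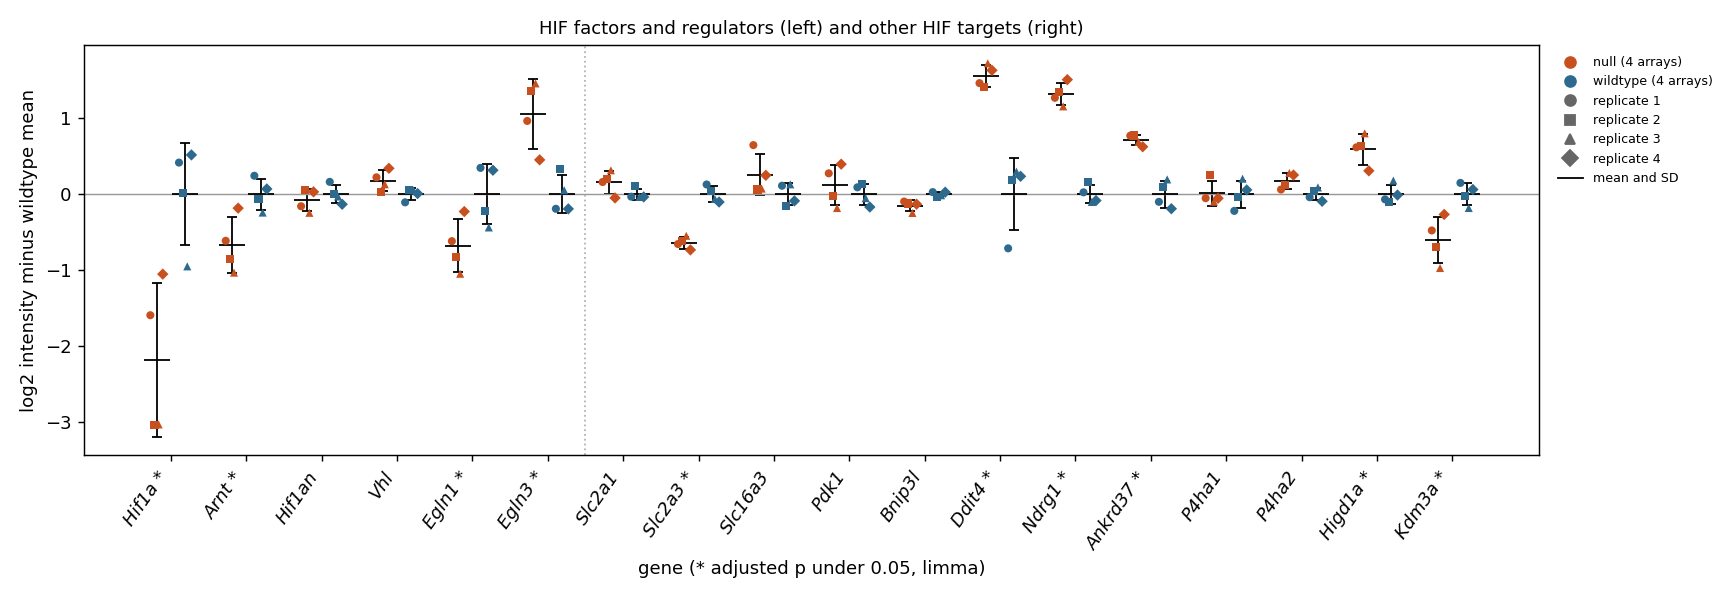
Log2 intensity minus the wildtype mean of each gene for the 6 tested HIF factors and regulators (left of the dotted line) and the 12 other HIF targets (right), with null arrays to the left of wildtype arrays, symbols for replicates, and bars for the mean and SD over 4 arrays. *Ddit4*, *Ndrg1* and *Egln3* rise by over 1 log2 unit, while *Hif1a* lies lowest on null replicates 2 and 3.

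The other HIF targets were called in shares close to those of all genes. Of 12 tested, 4 were called higher (33.3%, against 27% of all genes), 2 lower (16.7%, against 17.7%) and 6 neither, with a median log2 difference of 0.17. The null and wildtype arrays did not overlap in 7 of the 12 (58.3%, against 40.2% of all genes), namely the 6 called genes and *Bnip3l*. All 6 called genes changed by more than 1.5-fold. That was 4 of the 12 upwards (33.3%, against 11.9% of all genes called at that size) and 2 downwards (16.7%, against 9.62%).

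*Ddit4*, a stress-induced inhibitor of the growth kinase mTORC1, stood at 9.49, 9.44, 9.76 and 9.66 on null arrays and at 7.32, 8.21, 8.33 and 8.27 on wildtype arrays. Wildtype replicate 1 was lower than the other wildtype arrays, and all null arrays were above all of them. The difference was 1.56 ± 0.21 (2.94-fold, adjusted p = 0.000655, limma), and without wildtype replicate 1 it was 1.32.

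*Ndrg1*, a gene induced by stress and by differentiation, stood at 8.22, 8.30, 8.10 and 8.45 on null arrays and at 6.97, 7.11, 6.84 and 6.86 on wildtype arrays. Both groups were narrow and far apart. The difference was 1.32 ± 0.10 (2.50-fold, adjusted p = 3.02e-05, limma), with 1.08 for its second probe, and it was the only called member that kept its call under all 22 alternative analyses.

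*Ankrd37*, which encodes an ankyrin repeat protein, stood at 7.97, 7.98, 7.89 and 7.83 on null arrays and at 7.10, 7.30, 7.40 and 7.01 on wildtype arrays. The null arrays lay above all wildtype arrays, by 0.71 ± 0.10 on average (1.64-fold, adjusted p = 0.000851, limma). *Higd1a*, a small mitochondrial protein gene, stood at 7.81, 7.82, 7.99 and 7.5 on null arrays and at 7.12, 7.09, 7.37 and 7.18 on wildtype arrays. These too were separate, by 0.59 ± 0.12 (1.51-fold, adjusted p = 0.0043, limma).

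Of the glucose transporters among the members, 1 did not pass the test and 1 was lower. *Slc2a1*, the transporter GLUT1, stood at 10.57, 10.61, 10.72 and 10.36 on null arrays and at 10.37, 10.51, 10.37 and 10.37 on wildtype arrays. The ranges overlapped and the difference of 0.16 ± 0.10 did not pass (adjusted p = 0.203, limma). *Slc2a3*, the high-affinity transporter GLUT3, stood at 9.70, 9.74, 9.81 and 9.62 on null arrays and at 10.48, 10.40, 10.29 and 10.25 on wildtype arrays, all null arrays below all wildtype arrays. It fell, with a difference of -0.64 ± 0.09 (1.56-fold lower, adjusted p = 0.000591, limma), but under median absolute deviation scaling the difference was -0.10 (adjusted p = 0.759).

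*Kdm3a*, a histone H3 lysine demethylase, stood at 10.31, 10.10, 9.82 and 10.52 on null arrays and at 10.94, 10.76, 10.61 and 10.85 on wildtype arrays with its brightest probe. The null arrays were all below the wildtype arrays, with a difference of -0.60 ± 0.15 (1.52-fold lower, adjusted p = 0.0115, limma). Under median absolute deviation scaling it had 0.015 (adjusted p = 0.971), so neither call nor direction held. A second probe fell too, with -1.54 (adjusted p = 0.00823 over all probes) and another had -0.35 (adjusted p = 0.0534).

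The other 6 tested targets did not pass at their brightest probe. They were *Slc16a3*, the lactate exporter MCT4 (0.26), *Pdk1*, an inhibitory kinase of pyruvate dehydrogenase (0.12), *P4ha1* and *P4ha2*, collagen prolyl hydroxylases (0.01 and 0.18), *Slc2a1*, given above, and *Bnip3l*, a mitophagy receptor (-0.15), with adjusted p values of 0.119 (*P4ha2*) to 0.954 (*P4ha1*). *Bnip3l* lay lower on every null array, at 11.39 ± 0.07 in null and 11.54 ± 0.03 in wildtype cells (adjusted p = 0.122). A second, dimmer *P4ha1* probe fell, at 5.42 ± 0.51 in null and 6.18 ± 0.25 in wildtype cells (-0.76, adjusted p = 0.0322 over all probes).

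*Adm*, which encodes the vasodilator adrenomedullin, was above background on no array, and *Pfkfb3*, an activator of phosphofructokinase, on 1 null and no wildtype array. The probe of *Bnip3*, a mitophagy receptor, could not be matched to a single signal, and none of the signals it could be was above background on any array. These 3 genes were not tested.

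Other genes of the pathways were taken from further lists, chosen, like the members, with earlier results of these data known. Those named from each list are up to 4 genes with the largest moderated statistic. Among 9 further tested glycolysis genes, 4 were higher (44.4%, against 27% of all genes) and 3 lower (33.3%, against 17.7%), so these did not move one way, and under median absolute deviation scaling 4 were higher and 0 lower. *Pkm*, the pyruvate kinase that ends glycolysis, averaged 12.08 ± 0.28 in null and 11.13 ± 0.27 in wildtype cells (1.93-fold, adjusted p = 0.00269, limma), *Eno3*, the muscle enolase, rose 2.04-fold (adjusted p = 0.000436), and *Pgm1*, a phosphoglucomutase, rose 1.84-fold (adjusted p = 0.000185). *Pfkfb2*, of the same family as *Pfkfb3*, fell, with a difference of -0.42 (adjusted p = 0.0146), and had -0.04 under that scaling (adjusted p = 0.909).

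Pyruvate dehydrogenase, which acts on pyruvate in the mitochondria, gave a different count. Of 9 genes of the pyruvate dehydrogenase complex and its regulators, none was higher (also at an unadjusted p under 0.05 in limma) and 4 were lower (44.4%, against 17.7% of all genes), namely *Dlat* and *Pdhb*, subunits of the complex (-0.41 and -0.76), *Dld*, the subunit it shares with other complexes (-0.46), and *Pdp1*, its activating phosphatase (-1.23). Their adjusted p values were 0.00845 to 0.0246 (limma). Under median absolute deviation scaling only *Pdp1* of these 4 stayed lower (-1.04, adjusted p = 0.044), *Dlat*, *Pdhb* and *Dld* had -0.22, -0.38 and 0.12, and 1 other gene of the list was higher. With median centring 0 of the 9 were higher and 5 lower.

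Of 6 pentose phosphate genes, *H6pd* and *Taldo1* were higher (0.88 and 0.31) and *Rpe* lower (-0.56, and -0.24 without a call under median absolute deviation scaling). Of 5 further sugar and lactate transporters, *Slc2a8* was higher (0.77), and *Slc2a6*, which was above background on 4 null and no wildtype arrays, was at least 1.29-fold higher. Of 2 tested gluconeogenesis genes, *Pcx*, pyruvate carboxylase, was higher (0.54), a call lost under both other scalings (adjusted p of 0.0587 and 0.0866).

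Among 14 other regulators of HIF, 4 were higher (28.6%, against 27% of all genes) and 3 lower (21.4%, against 17.7%), shares close to the background, and under median absolute deviation scaling 5 were higher and 0 lower. *Cited2*, which competes with the alpha subunits for their coactivator, averaged 9.93 ± 0.22 in null and 10.93 ± 0.09 in wildtype cells (2.0-fold lower, adjusted p = 0.000274, limma), with -0.40 under that scaling (adjusted p = 0.289). *Cul2*, the scaffold of the *Vhl* ligase, had -0.80 (adjusted p = 0.017) and -0.53 under that scaling (adjusted p = 0.105), while *Usp20* and *Os9* rose (0.53 and 0.43), *Os9* without a call under median centring (adjusted p = 0.183).

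Among 31 further known HIF targets, 7 were higher (22.6%, against 27% of all genes) and 11 lower (35.5%, against 17.7%). Under median absolute deviation scaling 6 were higher and 2 lower, and with median centring 4 were higher and 12 lower. *Vegfa*, the vascular growth factor, averaged 10.72 ± 0.04 in null and 12.10 ± 0.17 in wildtype cells (2.61-fold lower, adjusted p = 1.73e-05, limma), and had -0.63 under that scaling (adjusted p = 0.148). *Tfrc*, the transferrin receptor, was 1.93-fold lower (-0.42 under that scaling, adjusted p = 0.198) and *Car12*, a carbonic anhydrase, 2.17-fold higher. *Tgfa*, a growth factor, was above background on no null and 4 wildtype arrays, and was at least 1.55-fold lower.

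The arrays within a genotype were not alike, and several values move with the results above. The mean of 24 splicing regulators was 10.03, 9.72, 9.62 and 10.12 on null replicates 1 to 4, against 10.63, 10.60, 10.34 and 10.68 on wildtype replicates 1 to 4. It was lowest on null replicates 2 and 3 and, among wildtype arrays, on replicate 3. Of the 24 genes, 15 were called lower (62.5%, against 17.7% of all genes) and 1 higher (4.17%, against 27%). Under median absolute deviation scaling 5 were lower and 1 higher. *Hif1a*, *Arnt*, *Egln1* and *Kdm3a* were lowest on the same 3 arrays within their genotypes, and *Gapdh* was highest on null replicates 2 and 3 and, among wildtype arrays, on replicate 3.

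**Figure D3:**
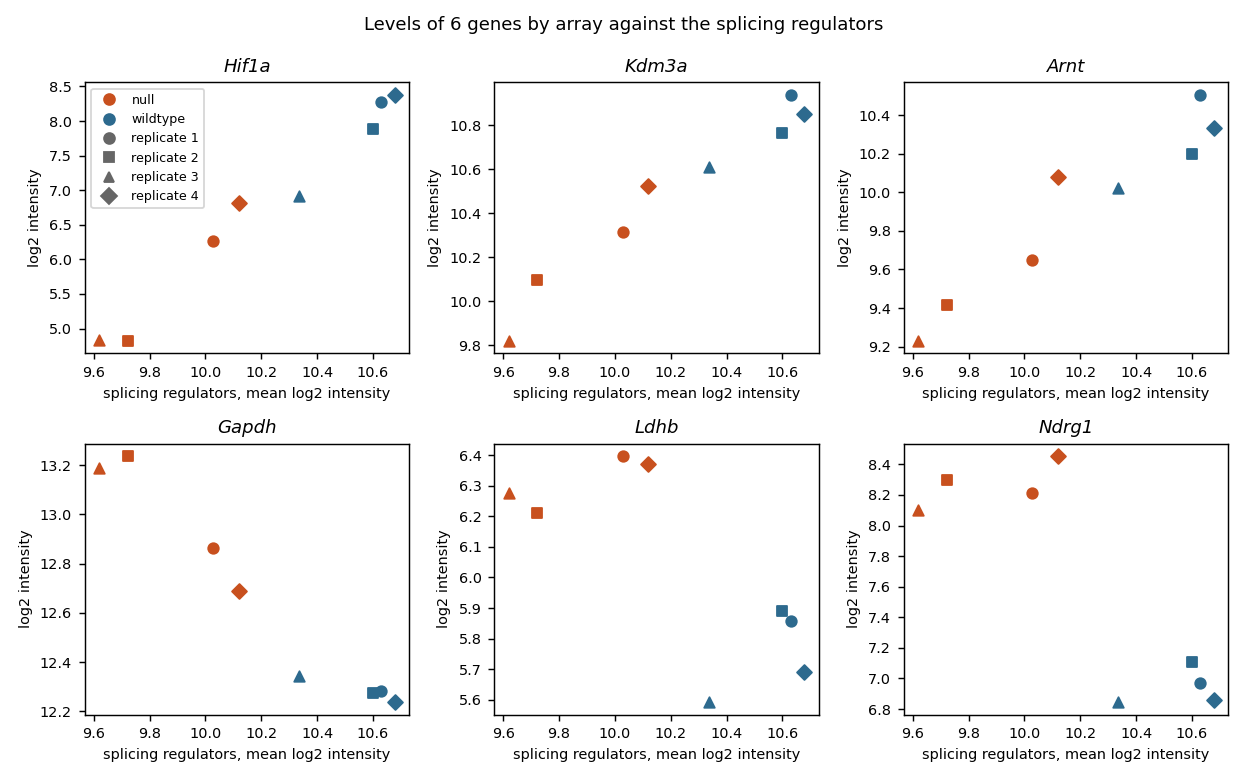
Log2 intensity of 6 genes on each of the 8 arrays (vertical axes, which do not start at 0) against the mean log2 intensity of 24 splicing regulators (horizontal axes), with null and wildtype arrays in colours and replicates as symbols. *Hif1a*, *Kdm3a* and *Arnt* lie high where the splicing regulators are high, *Gapdh* lies low there, and *Ldhb* and *Ndrg1* fall into separate null and wildtype levels.

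With that mean as a covariate, 2 members were called higher (*Ndrg1* and *Ldhb*) and 1 lower (*Slc2a3*), and *Hif1a* had a difference of 0.72 (adjusted p = 0.121, limma) in place of -2.18. *Gapdh* then had 0.14 (adjusted p = 0.691) and *Ddit4* 1.28 (adjusted p = 0.158). The mean did not overlap between the genotypes, so its part and that of genotype cannot be told apart by this fit. With *Xist*, the X-inactivation RNA, as a covariate, *Ndrg1* alone was called (1.52, adjusted p = 0.0144). *Xist* stood at 9.72, 9.91, 9.18 and 9.86 on null arrays and at 11.40, 12.00, 10.76 and 12.44 on wildtype arrays, which also do not overlap. *Xist* and the Y-linked *Eif2s3y*, *Kdm5d* and *Uty* were above background on all arrays. The Y-linked genes were not called (differences of 1.03, 0.77 and 0.11, adjusted p of 0.0633 to 0.545, limma). The sex make-up of the samples may differ between the genotypes, and its part and that of genotype cannot be told apart by this fit.

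**Figure D4:**
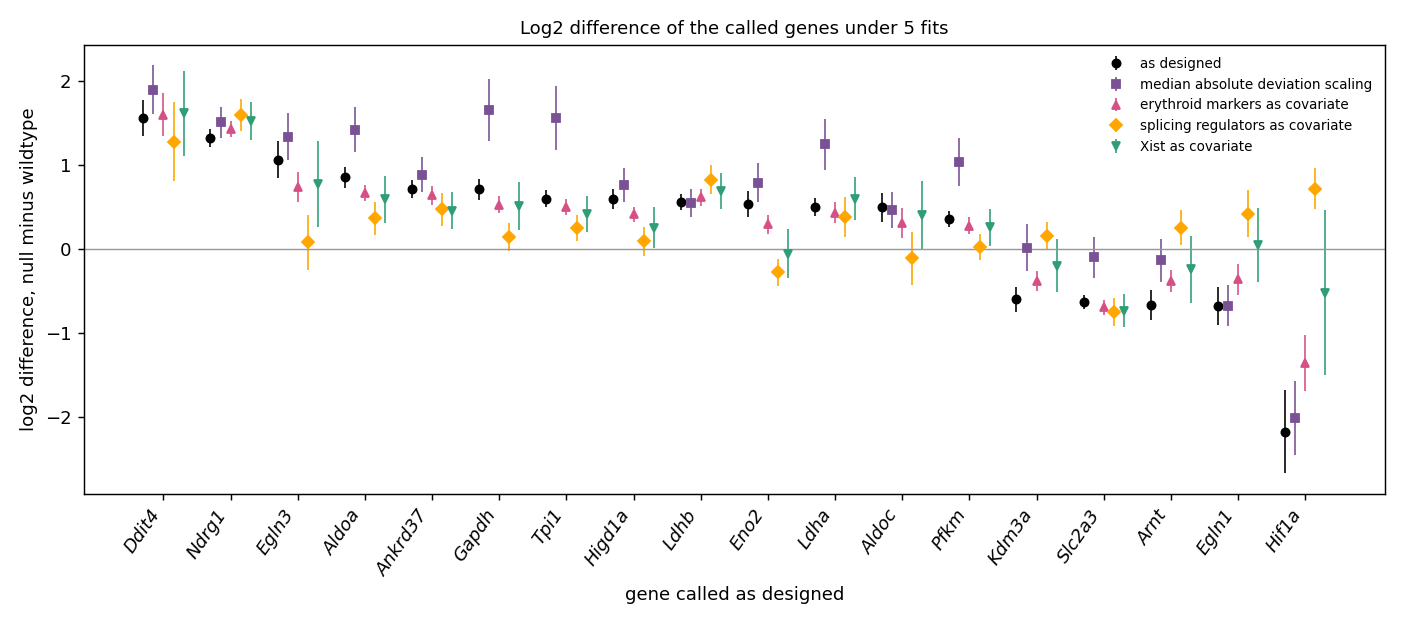
Log2 difference, null minus wildtype, with its standard error for the 18 called members in the main fit and in 4 alternative fits, named in the legend and listed from left to right within each gene. *Ndrg1* stays between 1.32 and 1.60, while *Hif1a* ranges between -2.18 and 0.72.

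Markers of other cells were also unequal. For comparison, 27% of all genes were called higher and 17.7% lower. The mean of 8 erythroid markers was 8.53, 9.08, 9.58 and 5.88 on null arrays and 7.08, 6.42, 7.73 and 6.01 on wildtype arrays, with 1 of 8 called (higher). The 4 globin genes tested were above background on all arrays and *Klf1*, an erythroid transcription factor, on 4 null and 3 wildtype arrays, while *Gata1* and *Ermap* were above background on none. All 4 tested markers of pancreatic and gut epithelium were higher, their summed linear level being 269 to 1149 on null arrays and 176 to 261 on wildtype arrays, while *Krt19* and *Foxa2* were above background on no array and *Pdx1* and *Ptf1a* on 1 null array each. Of 6 tested smooth muscle markers 5 were higher (83.3%), of 3 neural markers 2 (66.7%), and of 4 mesothelial markers 2 (50%, *Krt7* and *Lrrn4*). Of 7 endothelial markers 1 was higher and 1 lower (14.3% each), and of 5 macrophage markers none was called. Among untested markers, *Cnn1*, *Tubb3*, *Kdr*, *Tie1*, *Erg* and *Ptprc* were above background on no array. *Tagln* was above background on 2 null arrays, *Ret* on 3, and *Fcgr1* and *C1qa* on 1 each, with no wildtype array.

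Their part in the members' differences was not tested beyond 2 fits that were chosen after seeing the data. With the erythroid mean as a covariate, *Gapdh* had 0.53, *Aldoa* 0.67, *Tpi1* 0.50 and *Ldha* 0.43, all still called, whereas *Pfkm*, *Aldoc*, *Eno2*, *Arnt* and *Egln1* were not. Without wildtype replicate 3 and null replicates 2 and 3, *Hif1a* had -1.64 (adjusted p = 0.00245, limma) and *Gapdh* 0.51 (adjusted p = 0.00833), and 5 glycolytic enzymes were called higher.

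The tissue label was checked against early spleen mesenchyme. Of 10 such genes with a probe, 9 were above background on at least 4 of the 8 arrays, among them *Nkx2-3*, *Tcf21* and *Barx1*. These 9 include *Bapx1* itself, the targeted gene, which was above background on null arrays only. *Tlx1* was above background on no array. The level of these genes was not the same in both genotypes, with 4 called higher, among them *Bapx1* itself, and 2 lower. *Barx1* averaged 11.92 in null and 10.45 in wildtype cells, and *Nkx2-5*, a homeobox gene of the early spleen, averaged 6.66 in null and 8.97 in wildtype cells (adjusted p = 5.26e-05, limma), a difference that kept its call under both other scalings. The probe of *Bapx1* itself was above background on 4 null and no wildtype arrays. Its position in the transcript is not known here, and it therefore does not check the genotype labels. Between 42.0% and 44.5% of probes were above background on an array.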

How the data were processed

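RNA of sorted cells (4 *Bapx1* null and 4 wildtype populations, grouped by the sample titles) was hybridized to MouseWG-6 BeadChips. The deposited intensity values were background-subtracted in GenomeStudio by the authors, with a detection p-value deposited beside each (stored as 1 minus p). The deposited log2 values were centred by the authors per array and per probe, as a comparison with the signals shows. Per the methods the authors scaled intensities by the median absolute deviation, but the deposited log2 values do not hold that step. Signals in log2, centred per array and per probe without it, lay within 2.5e-06 of them for every matched probe. Both tables were joined by each probe's profile over the arrays (tolerance 0.005 log2), which matched 34536 of 45281 probes and all 19841 kept ones.

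Signals were corrected and quantile normalized with neqc (offset 16) in limma 3.58.1 (R 4.3.3). A probe was kept where 4 or more of the 8 arrays had it above background (detection p below 0.05). The brightest kept probe stood for its gene, and 10766 genes were fitted with lmFit and eBayes (two-sided, Benjamini-Hochberg). Of the kept probes, 16663 had 1 gene symbol, 11 several and 3167 none. The fit was tried on simulated data with independent noise for each gene. In the data 54.5% of the variance within genotypes lay on 1 shared axis, so that trial does not give the error rates here. Array number limits the precision, and each p-value sets the genotype difference against the spread between these samples of unstated embryo number.

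Every member is named. Values per array are given for members called with a fold over 1.5 and for *Hif1a*, *Epas1*, *Slc2a1*, *Ldha*, *Gapdh* and *Pgk1*. From each further list up to 4 genes with the largest moderated statistic are named. Bounds set a group that is above background on no array at the lowest detected signal. Members, lists and tests were chosen with earlier results of these data known. Alternatives covered the offset, scaling, deposited log2 values, filter, probe choice, covariates, replicate block, the methods' test and each array left out. Same-numbered arrays were not read as pairs.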

Additional observations from a re-analysis of the deposited data

Results flagged for a closer look

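In 4 of 58 groups of 4 arrays tested, 1 array lay far from the other 3 by its gap over the range of the group, which chance gives in about 1 in 20 groups. *P4ha1* was highest on null replicate 2, at 7.69, with the next array at 7.39. *Ddit4* was lowest on wildtype replicate 1, at 7.32, with the next at 8.21. *Slc2a1* was highest on wildtype replicate 2, at 10.51, with the next at 10.37, and *Pfkl* was lowest on wildtype replicate 4, at 10.87, with the next at 11.00.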

How the results depend on the processing

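Leaving out each array in turn kept the direction and the call of the called members in 128 of 144 fits, and the 16 losses were those of *Aldoc*, *Eno2* and *Egln1*. The count of members called ran between 11 and 14 higher and between 4 and 5 lower. The median difference of all genes ran between 0.082 and 0.11, the count of further pathway genes called lower between 14 and 25 (22 with all arrays), *P4ha1* between -0.069 and 0.077 and *Pgk1* between -0.081 and 0.0099. In the other alternatives the called members kept direction and call 190 times, lost the call 50 times and turned direction 9 times, and the cause was not tested.

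Scaling moved the centre. Scaling by the median absolute deviation put the median of all genes at 0.43, 517 genes lower (14.2% of those called, against 39.6%), 1 member and 3 further pathway genes lower, and the medians at 1.04 (enzymes), 0.14 (HIF factors and regulators) and 0.61 (other targets). *Pgk1* then had 0.76, *Hif1an* 0.42, *Bnip3l* 0.64 and *Kdm3a* 0.015. Median centring put the median of all genes at -0.026, with 1398 genes higher (60.9% of those called were lower), 5 enzymes and 11 further pathway genes higher, medians of 0.38 (enzymes) and 0.040 (other targets), and *Pgam1* at -0.065, *Pdk1* at -0.053 and *P4ha1* at -0.15. The deposited log2 values gave medians of 0.13 (all genes) and 0.21 (other targets), *Pgk1* 0.070 and *P4ha1* -0.0044. An offset of 50 gave medians of 0.076 (all genes) and 0.37 (enzymes).

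Without a filter the medians were 0.046 (all genes) and -0.081 (HIF factors and regulators), and with the filter at the 20th percentile 0.046 and -0.081. With detection p under 0.01 on all arrays, 3 members were lower and the HIF factors and regulators had a median of 0.049, because *Hif1a* and *Egln1* were no longer tested. The mean of all kept probes gave medians of 0.064 (all genes) and -0.14 (HIF factors and regulators), *Pgam1* -0.097 and *P4ha1* -0.38.

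With *Xist* as a covariate 205 genes were higher and 103 lower, 1 member higher and 0 lower, 0 enzymes higher, and 0 further pathway genes higher and 2 lower, with 1402 genes at an unadjusted p under 0.05 in limma. The medians were 0.0011 (all genes), -0.012 (HIF factors and regulators) and 0.075 (other targets), and *Pgk1* had 0.079, *Eno2* -0.058, *Egln1* 0.045 and *P4ha2* -0.0097. With the splicing regulators as a covariate 492 genes were higher and 301 lower, 2 members higher and 1 lower, 1 enzyme higher, and 2 further pathway genes higher and 5 lower. The medians were 0.027 (all genes), 0.20 (enzymes) and 0.31 (HIF factors and regulators). *Pfkl* had -0.19, *Aldoc* -0.12, *Pgk1* 0.20, *Eno2* -0.28, *Hif1a* 0.72, *Arnt* 0.25, *Hif1an* 0.032, *Egln1* 0.42, *Slc2a1* -0.10, *P4ha1* -0.25 and *Kdm3a* 0.16.

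After seeing the data, 2 alternatives were added. Without wildtype replicate 3 and null replicates 2 and 3, 3 members were lower, 5 enzymes and 13 further pathway genes higher, the medians were 0.32 (enzymes) and 0.25 (other targets), and *Pgk1* had 0.020. With the erythroid mean as a covariate, 3 members were lower and 5 enzymes higher, the medians were 0.064 (all genes), 0.31 (enzymes) and 0.22 (other targets), and *Pgk1* had 0.023 and *P4ha1* -0.032.

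With the replicate number as a block 46.8% of genes were called, and *Pfkl* was the only member whose call changed (adjusted p = 0.0313, limma). The deviations of same-numbered arrays correlated by 0.12, 0.05, 0.32 and 0.38, and 2 of the 4 null arrays (replicates 3 and 4) correlated best with their own number. The labels do not state a pairing and 1 of the 4 correlations was under 0.1, so the arrays were not read as pairs. The methods' test after Benjamini-Hochberg called 38.1% of genes. Levels near background, as for *Egln1* and for *Hif1a* on null replicates 2 and 3, limit what those differences can show.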
